A study of Mus musculus with 23 samples.

Results

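Transcripts of lysozyme and of 9 lysosomal proteins were described in single cells of mouse bone marrow. The 10 genes, Lyz2, Ctsb, Ctsd, Ctss, Ctsz, Ctsh, Ctsc, Psap, Grn and Lamp1, were taken by symbol from the 23536 gene rows of the table of the whole series, and all 10 were found. The rule used symbols and no measured values. The cells were profiled with CEL-seq, a method that puts a barcode and a molecular tag on each captured mRNA before amplification. Sorted haematopoietic stem cells (HSC) were isolated by surface markers (Lineage-, Kit+, Sca1+, CD150+, CD48-). Micro-dissected cells came from marrow that was mildly flushed, from which structures of attached cells were trimmed with needles and separated, and their clump was recorded. No strain, age, sex, animal number or treatment is stated for either group. The labels give 5 sorted HSC and 18 micro-dissected libraries, of which 4 and 17 have cells in the table.

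Cells with at least 1000 transcripts were kept. These were 245 sorted HSC, 2 to 91 per library, and 707 micro-dissected cells, 6 to 73 per library. A library held 3119 to 238770 transcripts in the sorted HSC group and 9032 to 313488 in the micro-dissected group. Sorted HSC replicate 1 had 2 kept cells, and a transcript in it stands for 321 CPM (transcripts scaled to a common library total). Its zeros therefore say little. The summed level of 11 stem cell markers was 4830 to 6284 CPM in sorted HSC libraries, against 86.7 to 762 CPM in micro-dissected libraries, and none of 8 eosinophil markers had a transcript in sorted HSC. Micro-dissected replicates 1 to 5 stood apart, since all 65 cells of a cluster without a name came from them. Sorted HSC against micro-dissected cells, cell classes against erythroblast-like cells and erythroblast-like clusters were also fitted without these libraries. Values from these fits are given where they change a call. Comparisons between the other classes, of classes with sorted HSC and by clump partner were not fitted without them.

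Lysosomes are the acidic compartments in which cells degrade proteins, lipids and sugars. Macrophages use them to digest engulfed cells, and the marrow macrophage is known for taking up nuclei that erythroblasts expel. Lysozyme, the product of Lyz2, cleaves bacterial cell walls and is a classical product of macrophages and neutrophils. Cathepsins are proteases of the lysosome. Cathepsins B, S, Z, H and C (Ctsb, Ctss, Ctsz, Ctsh, Ctsc) are cysteine proteases and cathepsin D (Ctsd) is an aspartic protease. Prosaposin (Psap) is cut into the saposins that help enzymes degrade sphingolipids, progranulin (Grn) is a secreted and lysosomal glycoprotein, and Lamp1 is a heavily glycosylated protein of the lysosomal membrane.

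The genes lie on 8 chromosomes in GENCODE vM21 (mm10), and all are protein-coding. Lyz2 and its copy Lyz1 are neighbours on chromosome 10 (chr10:117277331-117282321 and chr10:117287797-117292868, both on the minus strand), 5475 bases apart. Ctsd is at chr7:142375911-142388038 and Ctsc at chr7:88278085-88310888, Ctsb at chr14:63122462-63145923, Ctsh at chr9:90054152-90076089 and Ctss at chr3:95526786-95556403. Ctsz is at chr2:174427493-174439039, Psap at chr10:60277627-60302597, Grn at chr11:102430315-102437048 and Lamp1 at chr8:13159161-13175338.

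The palindrome CACGTG is the core of the element bound by TFEB and its relatives, factors known to drive lysosomal genes. It was searched in the 250 bases before the gene start in the RefSeq promoter table (GRCm38.p6, the mm10 assembly), which held 8 of the 10 genes. Ctsb and Ctsh were not matched. Both strands are covered, since the motif is its own reverse complement. Lamp1 held 4 copies, starting 61, 45, 28 and 15 bases before the RefSeq start, and Ctsd held 2, starting 245 and 98 bases before its RefSeq start. The windows of Ctsd (chr7:142387828-142388077, minus strand) and Grn (chr11:102430257-102430506, plus strand) run into the genes as annotated in GENCODE. The Ctsd copy 98 bases before the RefSeq start lies inside that annotated gene. Lyz2, Ctss, Ctsz, Ctsc, Psap and Grn held none. Of 32851 promoters in the table, 6.02% held a copy and 0.021% held 4 or more. Over genes, 6.86% of 27025 held a copy, against 23.7% of the 59 matched genes of a wider list of lysosomal genes. The window of Lamp1 (chr8:13158911-13159160, plus strand) is shown for its 4 copies, and that of Lyz2 (chr10:117282322-117282522, minus strand, the part before both annotated starts) as a member without any; capitals mark CACGTG.
Lamp1: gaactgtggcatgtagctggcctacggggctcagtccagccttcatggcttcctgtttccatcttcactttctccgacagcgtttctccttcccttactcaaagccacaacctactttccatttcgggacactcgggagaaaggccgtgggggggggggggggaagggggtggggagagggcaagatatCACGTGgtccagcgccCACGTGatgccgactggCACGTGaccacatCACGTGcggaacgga
Lyz2: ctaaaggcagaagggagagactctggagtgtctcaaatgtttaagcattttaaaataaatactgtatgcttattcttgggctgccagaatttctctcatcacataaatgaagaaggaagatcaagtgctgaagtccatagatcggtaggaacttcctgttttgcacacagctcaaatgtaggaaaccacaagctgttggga
A match describes the letters only, and binding was not measured.

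In sorted HSC, lysozyme and most of the lysosomal genes were lower than in micro-dissected cells. Of the 10 genes, 9 passed the filter on low counts, 7 fell and none rose past the threshold, an adjusted p of 0.05 in edgeR's quasi-likelihood test. Over all 3639 genes tested, 19.2% were lower and 11.2% higher. The members' median log2 fold change, sorted HSC over micro-dissected, was -1.59, beside -0.16 for all genes tested. Ctsh and Ctss, with 8 and 10 transcripts in sorted HSC, passed the filter through micro-dissected libraries, where they are higher. The count of 7 and the median are therefore a description. Micro-dissected libraries are mixtures of cell types, so fewer cells that express a gene and less RNA per cell cannot be told apart in these sums. The summed level of 12 macrophage markers was 0 to 128 CPM in sorted HSC libraries, where 5 of the markers had no transcript, against 219 to 8301 CPM in micro-dissected libraries. That of 10 myelocyte markers was 0 to 130.2 CPM in sorted HSC libraries, with 6 markers at 0, against 11193 to 54059 CPM in micro-dissected libraries. Their part in the result was not tested. With library totals as scaling, 754 genes were higher and 558 lower, in place of 408 and 698, and 6 members were lower.

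Lyz2 had 0, 84, 111 and 122 CPM in sorted HSC replicates 1, 3, 4 and 5, against 168 to 2383 CPM with a median of 809 in the 17 micro-dissected libraries. No values of the groups overlapped. Its log2 fold change was -3.54 ± 0.75 (approximate SE, adjusted p = 9.1e-04). Ctsb, the cathepsin with the highest mean in micro-dissected libraries, had 0, 139, 171 and 189 CPM in sorted HSC, against 285 to 1830 CPM with a median of 742 in micro-dissected cells. Here too every micro-dissected library was above every sorted one, with a log2 fold change of -2.64 ± 0.49 (adjusted p = 7.5e-05). Ctsh had 0, 12.6, 25.7 and 11.1 CPM in sorted HSC, against 0 to 300 CPM with a median of 143 in micro-dissected cells. It fell by 3.31 ± 0.59 on the log2 scale (adjusted p = 3.9e-05), and 15 of 17 micro-dissected libraries lay above the highest sorted one.

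Ctss, the cathepsin known for cutting the invariant chain of MHC class II, had 0, 16.8, 25.7 and 16.7 CPM in sorted HSC, against 0 to 547 CPM with a median of 104 in micro-dissected cells. Its log2 fold change was -3.09 ± 0.88 (adjusted p = 0.00953). Lamp1 had 321, 193, 231 and 206 CPM in sorted HSC, against 287 to 1002 CPM with a median of 587 in micro-dissected cells (log2 fold change -1.59 ± 0.34, adjusted p = 4.9e-04). The groups overlapped for Lamp1 through sorted HSC replicate 1 only, and all 17 micro-dissected libraries were above the other 3. Psap and Ctsz fell less. Psap had 0, 319, 334 and 189 CPM in sorted HSC, against 238 to 1267 CPM in micro-dissected cells (log2 fold change -1.39 ± 0.44, adjusted p = 0.015). Ctsz had 0, 54.6, 77 and 77.8 CPM in sorted HSC, against 0 to 305 CPM in micro-dissected cells (-1.36 ± 0.49, adjusted p = 0.0307).

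Ctsd and Grn did not pass the test, and Ctsc was not tested. Ctsd had 0, 151, 283 and 178 CPM in sorted HSC, against 94.6 to 1148 CPM in micro-dissected cells, with a log2 fold change of -1.18 ± 0.58 (adjusted p = 0.131). Grn had 0, 185, 171 and 145 CPM in sorted HSC, against 70.8 to 668 CPM in micro-dissected cells (-0.77 ± 0.40, adjusted p = 0.149). Ctsc, which removes dipeptides and activates granule proteases, was filtered out, with 0, 37.8, 34.2 and 22.2 CPM in sorted HSC, against 0 to 99.1 CPM in micro-dissected cells. The calls of Ctsz, Psap and Ctss were the least firm. Ctsz lost its call with library totals as scaling (adjusted p = 0.0741) and without sorted HSC replicate 3, 4 or 5 (0.166, 0.0702 and 0.106), Ctss without replicate 3 or 5 (0.0631 and 0.0569) and Psap without replicate 5 (0.106), which left Lyz2, Ctsb, Ctsh and Lamp1 as the 4 genes called without replicate 5. In that fit without replicate 5, 520 of 3818 genes were lower. Without micro-dissected replicates 1 to 5, 7 members were again lower, where 774 of 4389 genes were.

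**Figure D1:**
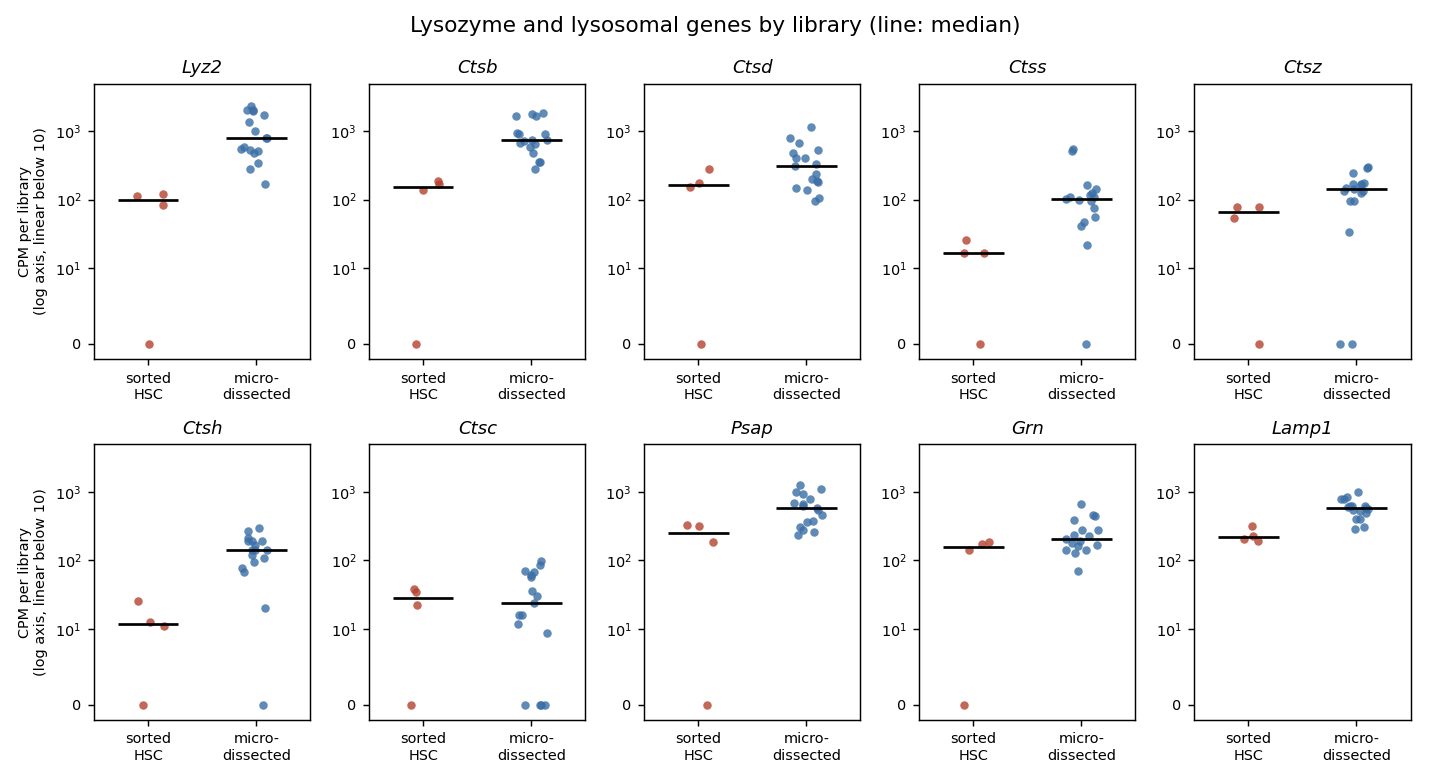
Level of each of the 10 genes by library in CPM (log axis, linear below 10), sorted HSC on the left and micro-dissected on the right, a point per library and a line at the median. Lyz2 and Ctsb do not overlap between the groups, while Ctsc and Grn do, and the sorted HSC points at 0 are replicate 1 with 2 kept cells.

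To see which cells carried these transcripts, micro-dissected cells were clustered without the 10 genes, without Lyz1 and without a wider list of 74 lysosomal genes, and the clusters were named from marker genes. This gave 232 erythroblast-like cells, 141 myelocyte-like cells (myelocytes and metamyelocytes, marked by Ngp, Camp and Ltf), 64 promyelocyte-like cells (myeloblasts and promyelocytes, marked by Elane, Prtn3 and Mpo) and 57 mature neutrophil-like cells (Retnlg, Mmp9). There were also 46 eosinophil-like cells (Prg2, Epx, Ear1), 18 macrophage-like cells (C1qa, C1qb, Cd5l, Vcam1), 9 plasma-cell-like, 8 megakaryocyte-like and 11 skeletal muscle-like cells. A cluster of 56 monocyte-like cells was mixed, since markers of plasmacytoid dendritic, B, T and NK cells were raised in parts of it. When it was clustered alone, 9 cells were named monocyte, 8 plasmacytoid dendritic cell and 7 T and NK cell. Groups of 19 cells (led by Vpreb3) and 13 cells had no name. Unless a part is named, monocyte-like cells below are the whole mixed cluster, in which cells named monocyte were a minority. Levels below are pooled over the cells of a class unless a library is named.

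Macrophage-like cells had the highest pooled level of all classes in Ctsb, Ctsd, Ctss, Ctsz, Ctsc, Psap, Grn and Lamp1, and eosinophil-like cells had it in Ctsh. For Lyz2, macrophage-like cells stood at 4344 CPM, mature neutrophil-like cells at 4175 CPM and myelocyte-like cells at 3948 CPM. With Lyz1 and Lyz2 added up, mature neutrophil-like cells (14570 CPM) and myelocyte-like cells (12487 CPM) were above macrophage-like cells (10398 CPM). Ctsb stood at 12471 CPM in macrophage-like cells, against 792 CPM in erythroblast-like cells, and Psap at 8927 CPM, against 246 CPM. Macrophage-like cells made up 2.5% of the micro-dissected cells and held 3.4% of all transcripts, but 67.1% of the transcripts of Ctss, 49.8% of Ctsc, 49% of Ctsd, 44.6% of Ctsb and 42.6% of Psap. For Lyz2 the share was 11.1% and for Ctsh 12.3%. The plot of level and share by class shows these differences.

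**Figure D2:**
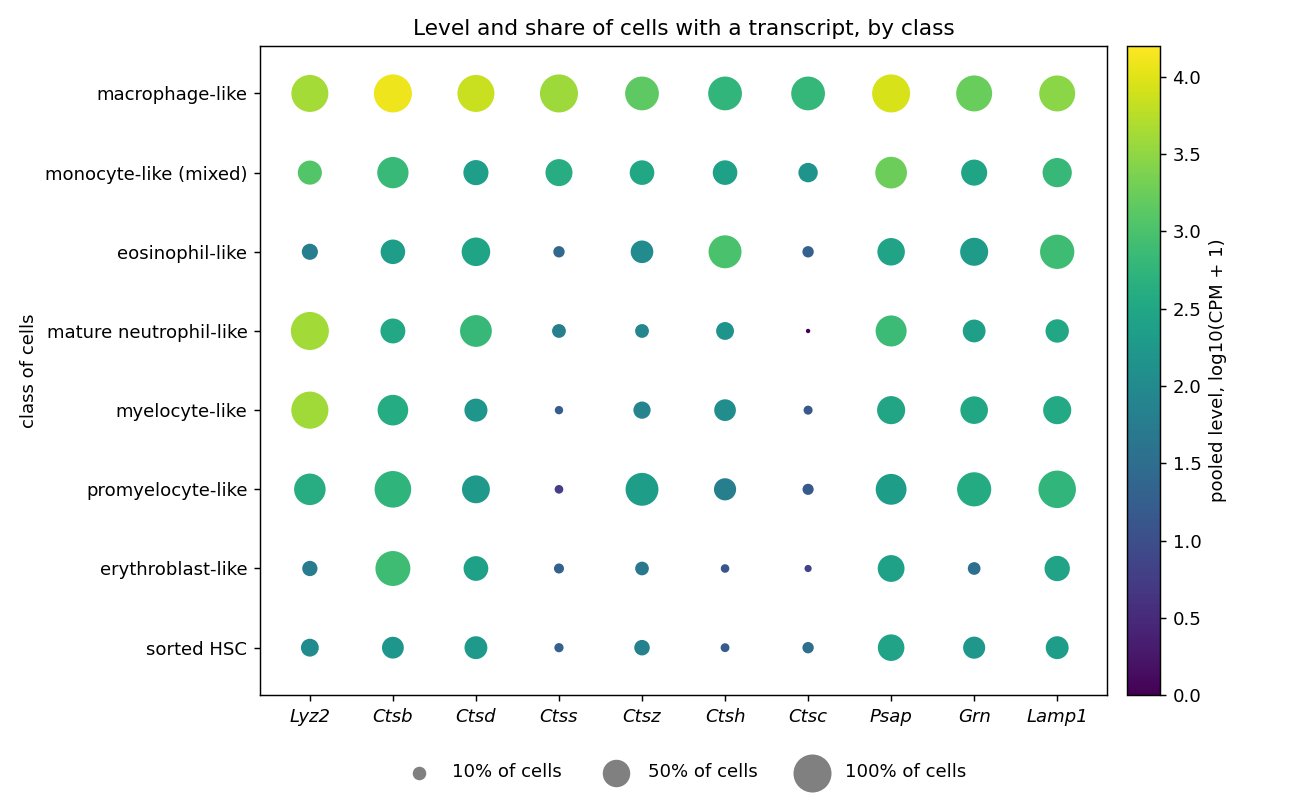
Pooled level (colour, log10 of CPM + 1) and share of cells with at least 1 transcript (area of the point) of each gene in 7 classes of micro-dissected cells and in sorted HSC. Macrophage-like cells are high for every gene, Lyz2 is also high in myelocyte-like and mature neutrophil-like cells, Ctsh in eosinophil-like cells, and Ctsb is seen in 83.6% of erythroblast-like cells.

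Macrophage-like sums of at least 3 cells came from micro-dissected replicates 12, 16 and 17, with 3, 3 and 4 cells. Set against erythroblast-like sums of 12 libraries with the library as a block, all 10 genes rose. Of the 1200 genes tested, 24.3% were higher and 24.4% lower, and the members' median log2 fold change was 5.28, beside -0.15 over all genes tested. The filter kept genes that are high in any class of at least 3 sums, so Ctss and Ctsc passed through the few classes where they are high, macrophage-like cells among them. The count of 10 and the median are therefore a description. Ctsb had 17602, 13450 and 12389 CPM in the 3 macrophage-like sums, against 190 to 1218 CPM in erythroblast-like sums with a median of 778. The values lay far apart, with a log2 fold change of 4.24 ± 0.33 (adjusted p = 2.6e-17). Ctsd had 5418, 7264 and 7762 CPM in macrophage-like sums, against 52.3 to 760 CPM in erythroblast-like sums (4.52 ± 0.34, adjusted p = 1.2e-22). Ctss had 1380, 1345 and 4812 CPM in macrophage-like sums, against 0 to 95.1 CPM in erythroblast-like sums, and 7 of the 12 erythroblast-like sums were at 0. Its log2 fold change was 7.37 ± 0.57.

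Psap varied least among the 3 macrophage-like sums. It had 8492, 8415 and 7927 CPM in macrophage-like sums, against 117 to 379 CPM in erythroblast-like sums (log2 fold change 5.36 ± 0.34, adjusted p = 3.1e-25). Grn had 2422, 2415 and 1884 CPM in macrophage-like sums, against 0 to 174 CPM in erythroblast-like sums (5.76 ± 0.42, adjusted p = 9.3e-24). Lamp1 had 5612, 1872 and 2559 CPM in macrophage-like sums, against 92.1 to 759 CPM in erythroblast-like sums, with a log2 fold change of 3.87 ± 0.34. The remaining 4 genes, Ctsc, Lyz2, Ctsh and Ctsz, had log2 fold changes of 6.88, 5.66, 5.19 and 4.81. Leaving out each macrophage-like sum in turn changed none of the 10 calls. The value that moved most was that of Lyz2, which was 4.10 without replicate 17, where macrophage-like cells had 8007 CPM, against 1551 and 1350 CPM in replicates 12 and 16.

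**Figure D3:**
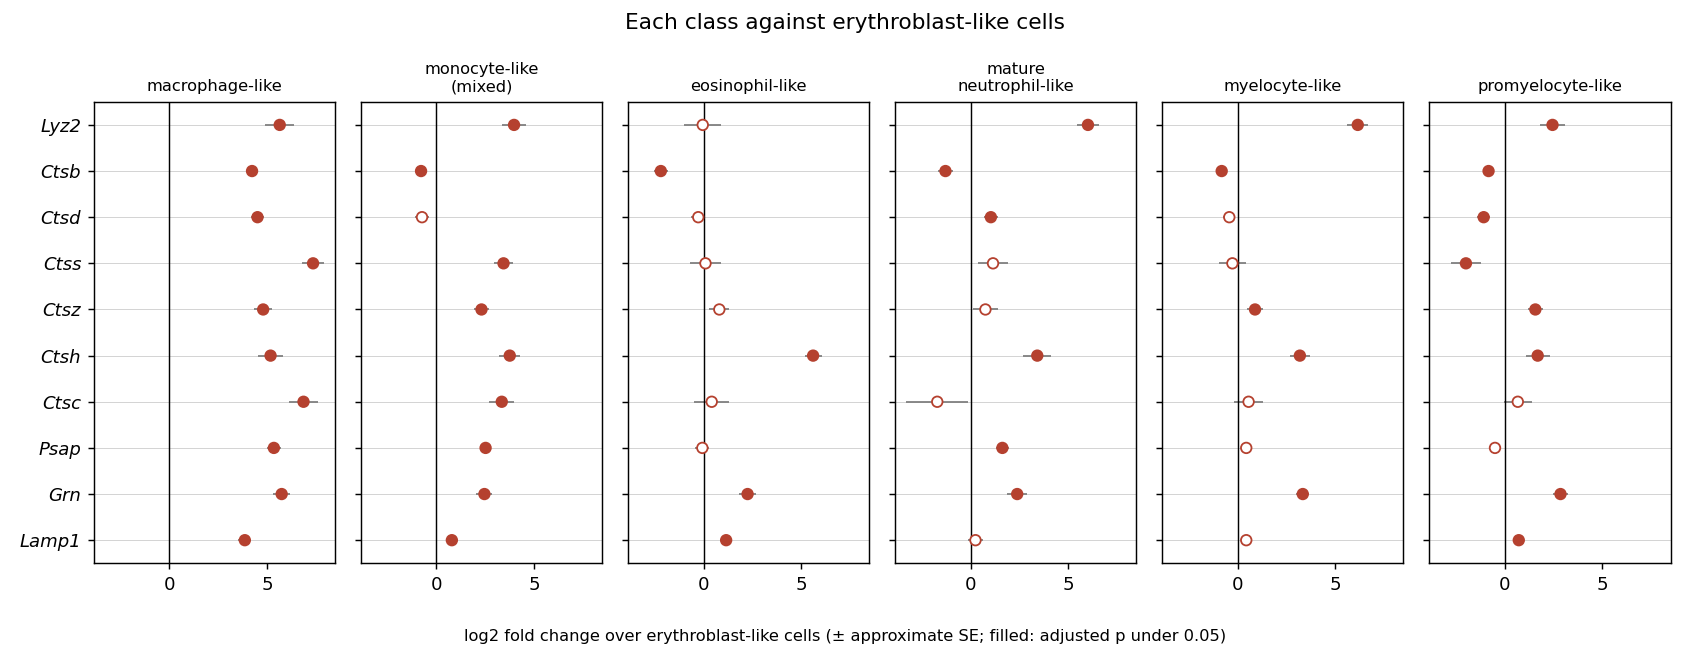
Log2 fold change of each gene in 6 classes over erythroblast-like cells, with approximate SE, from the fit with library as a block; filled points passed an adjusted p of 0.05. All 10 genes are to the right in macrophage-like cells, Lyz2 and Ctsh are to the right in most classes, and Ctsb is to the left in every class other than macrophage-like cells.

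Macrophage-like cells also stood above each other class in most members. They were higher in 9 of 10 genes than eosinophil-like, mature neutrophil-like and myelocyte-like cells, in 10 than promyelocyte-like cells and in 8 than the mixed monocyte-like cells. Over all 1200 genes, 16.8%, 24.1%, 16.7%, 18.8% and 14.5% were higher in these 5 comparisons, in the same order. The counts come from the fit and filter described above, so they are a description too. The exceptions were Lyz2 and Ctsh. Lyz2 did not differ past the threshold between macrophage-like and myelocyte-like cells (log2 fold change -0.49 ± 0.63, adjusted p = 0.589), between macrophage-like and mature neutrophil-like cells (-0.35 ± 0.66, adjusted p = 0.708) or between macrophage-like and monocyte-like cells (1.69 ± 0.69, adjusted p = 0.0709). A p above the threshold does not show that these classes are alike. Ctsh did not pass against eosinophil-like cells (-0.43 ± 0.50, adjusted p = 0.591) or monocyte-like cells (1.43 ± 0.59, adjusted p = 0.0627).

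Lyz2 marked the later stages of the neutrophil line together with macrophage-like cells. Mature neutrophil-like sums had 1688 to 7225 CPM in 8 libraries, myelocyte-like sums 459 to 8131 CPM in 11, and promyelocyte-like sums 0 to 865 CPM in 8. Erythroblast-like sums had 0 to 279 CPM. Myelocyte-like cells exceeded promyelocyte-like cells, the earlier stage, by 3.70 ± 0.52 on the log2 scale (adjusted p = 2.7e-07, 28.7% of genes higher), while mature neutrophil-like and myelocyte-like cells did not differ past the threshold (-0.14 ± 0.43, adjusted p = 0.837). Within the myelocyte class, the cluster led by Chi3l3 and Camp had 3287 CPM and the cluster led by Ltf and Ifitm6 had 5949 CPM, values without a test. Together, myelocyte-like cells held 52.9% of all Lyz2 transcripts of micro-dissected cells and mature neutrophil-like cells 12.1%. Eosinophil-like cells, also granulocytes, had 60.4 CPM, with 6 of 10 sums at 0, and did not differ past the threshold from erythroblast-like cells (-0.04 ± 0.95, adjusted p = 0.975). Lyz2 transcripts were seen in 15.2% of 46 eosinophil-like cells and 13.4% of 232 erythroblast-like cells, against 100% of mature neutrophil-like and 95% of myelocyte-like cells, with median depths of 2220, 1771, 1444 and 2783 transcripts per cell. The shares in eosinophil-like and erythroblast-like cells lay close together.

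The Lyz2 row has to be read together with Lyz1. The transcripts of both genes are 92% identical, and 93.8% over their last 300 bases, with a longest identical run of 104 bases there. CEL-seq reads come from the 3' end, and reads of 1 gene can be assigned to the other, so the split between the rows is uncertain. The Lyz1 row held more transcripts than the Lyz2 row in every library, 113 against 55.2 in sorted HSC and 7931 against 3320 in micro-dissected cells. In the 14 libraries with at least 20 Lyz2 transcripts the ratio of Lyz1 to Lyz2 ran from 1.28 to 5.75. It was 4.02 to 5.75 in 3 of the micro-dissected replicates 1 to 5, and 1.28 to 4.99 with a median of 2.44 in 9 of replicates 6 to 17. The Lyz1 row moved as Lyz2 did in sorted HSC against micro-dissected cells (log2 fold change -3.97 ± 0.58, adjusted p = 3.5e-06), in macrophage-like against erythroblast-like cells (5.29 ± 0.73) and in myelocyte-like against promyelocyte-like cells (3.67 ± 0.55, adjusted p = 7.8e-07). With both rows added up, 7 members were again lower in sorted HSC, where 696 of 3638 genes were.

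**Figure D4:**
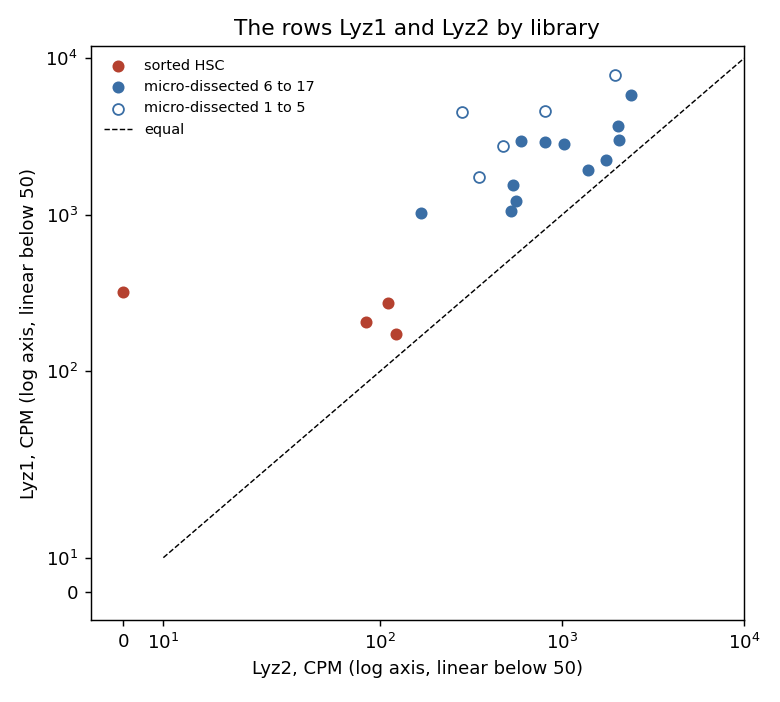
Level of the Lyz1 row against the Lyz2 row per library in CPM (log axes, linear below 50), sorted HSC in red and micro-dissected libraries in blue, with replicates 1 to 5 as open points; the dashed line marks equal levels. All libraries lie above the line.

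Ctsh was the cathepsin of eosinophil-like cells. It is an aminopeptidase that trims proteins from their N-terminus. The 10 eosinophil-like sums had 399 to 2624 CPM with a median of 873, against 0 to 58 CPM in erythroblast-like sums, without overlap (log2 fold change 5.62 ± 0.44, adjusted p = 3.8e-21). Ctsh transcripts were found in 73.9% of eosinophil-like cells (exact 95% binomial interval 58.9 to 85.7%) and in 3.0% of erythroblast-like cells (1.2 to 6.1%), and in 56.5% and 1.4% after each cell was thinned to 1000 tags. Eosinophil-like cells exceeded every other class compared except macrophage-like cells. The log2 differences were 2.43 ± 0.35 over myelocyte-like, 2.20 ± 0.49 over mature neutrophil-like and 3.93 ± 0.41 over promyelocyte-like cells (adjusted p = 1.0e-08, 1.0e-04 and 5.6e-14), where 13.7%, 27.3% and 7.5% of genes were higher. Monocyte-like cells were lower than eosinophil-like cells, with a log2 fold change of -1.86 (adjusted p = 9.4e-05), where 8.08% of genes were lower. Eosinophil-like cells made up 6.5% of micro-dissected cells and held 42.9% of the Ctsh transcripts. In all, 3 of the 10 members were higher in eosinophil-like than in erythroblast-like cells, Ctsh, Grn (2.26 ± 0.45) and Lamp1 (1.16 ± 0.27). Conversely 1 was lower, Ctsb, where 29.8% and 35% of all genes tested were higher and lower. Ctsh could pass the filter through the eosinophil-like sums, so these counts are a description.

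Ctsb was the member with a high level in erythroblast-like cells. At 792 CPM it was the highest of the 10 there and was found in 83.6% of cells. Among classes without a test, plasma-cell-like cells had 799 CPM, skeletal muscle-like cells 751 CPM, the cluster without a name 680 CPM and megakaryocyte-like cells 16.3 CPM. Ctsb fell in each tested class other than macrophage-like cells, set against erythroblast-like cells. The log2 fold change was -2.19 ± 0.37 in eosinophil-like cells (adjusted p = 5.1e-07), -1.29 ± 0.40 in mature neutrophil-like cells (adjusted p = 0.00301) and -0.82 ± 0.27 in myelocyte-like cells (adjusted p = 0.00481). It was -0.83 ± 0.28 in promyelocyte-like cells (adjusted p = 0.00874) and -0.79 ± 0.30 in monocyte-like cells (adjusted p = 0.0215). The last 2 lost their calls with library totals as scaling (-0.45 and -0.31), and the promyelocyte-like and myelocyte-like ones at a minimum of 2000 transcripts per cell (-0.14 and -0.24). The monocyte-like value was 0.01 where each sum held at least 5 cells.

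Erythroblast-like cells fell into 3 clusters that differed in Ctsb, a comparison added after seeing the levels. Its calls were the same without micro-dissected replicates 1 to 5. The cluster with the globin genes Hbb-b1 and Hba-a2 among its leading genes had 1406 CPM (817 to 2087 in 9 libraries). The cluster with Hemgn and the erythroid factor gene Klf1 had 1060 CPM (532 to 1562 in 10 libraries), and the cluster with Car1 and Minpp1 had 430 CPM (162 to 943 in 10 libraries). With library as a block, the Hbb-b1 cluster was higher than the Car1 cluster by 2.11 ± 0.24, and the Hemgn cluster higher than the Car1 cluster by 1.32 ± 0.23, on the log2 scale (adjusted p = 1.1e-12 and 7.0e-07). Only 266 genes passed the filter, of which 44.4% and 44% were higher in these comparisons, and Ctsb was the only member among them. The Hbb-b1 cluster over the Hemgn cluster was 0.79 ± 0.22 (adjusted p = 0.00253, 27.4% of genes higher), but 0.30 with library totals as scaling (adjusted p = 0.232). The median over all genes was -0.18 in the first fit and -0.64 in the second. The share of cells with Ctsb was 87.5%, 81.1% and 82.3% in the Hbb-b1, Hemgn and Car1 clusters, at median depths of 1514, 1759 and 4210 transcripts. In the same order Lyz2 stood at 94.6, 70.8 and 27 CPM and Grn at 43.7, 32.6 and 24.3 CPM. These levels rest on 13, 13 and 10 transcripts of Lyz2 and 6, 6 and 9 of Grn, and were not tested.

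**Figure D5:**
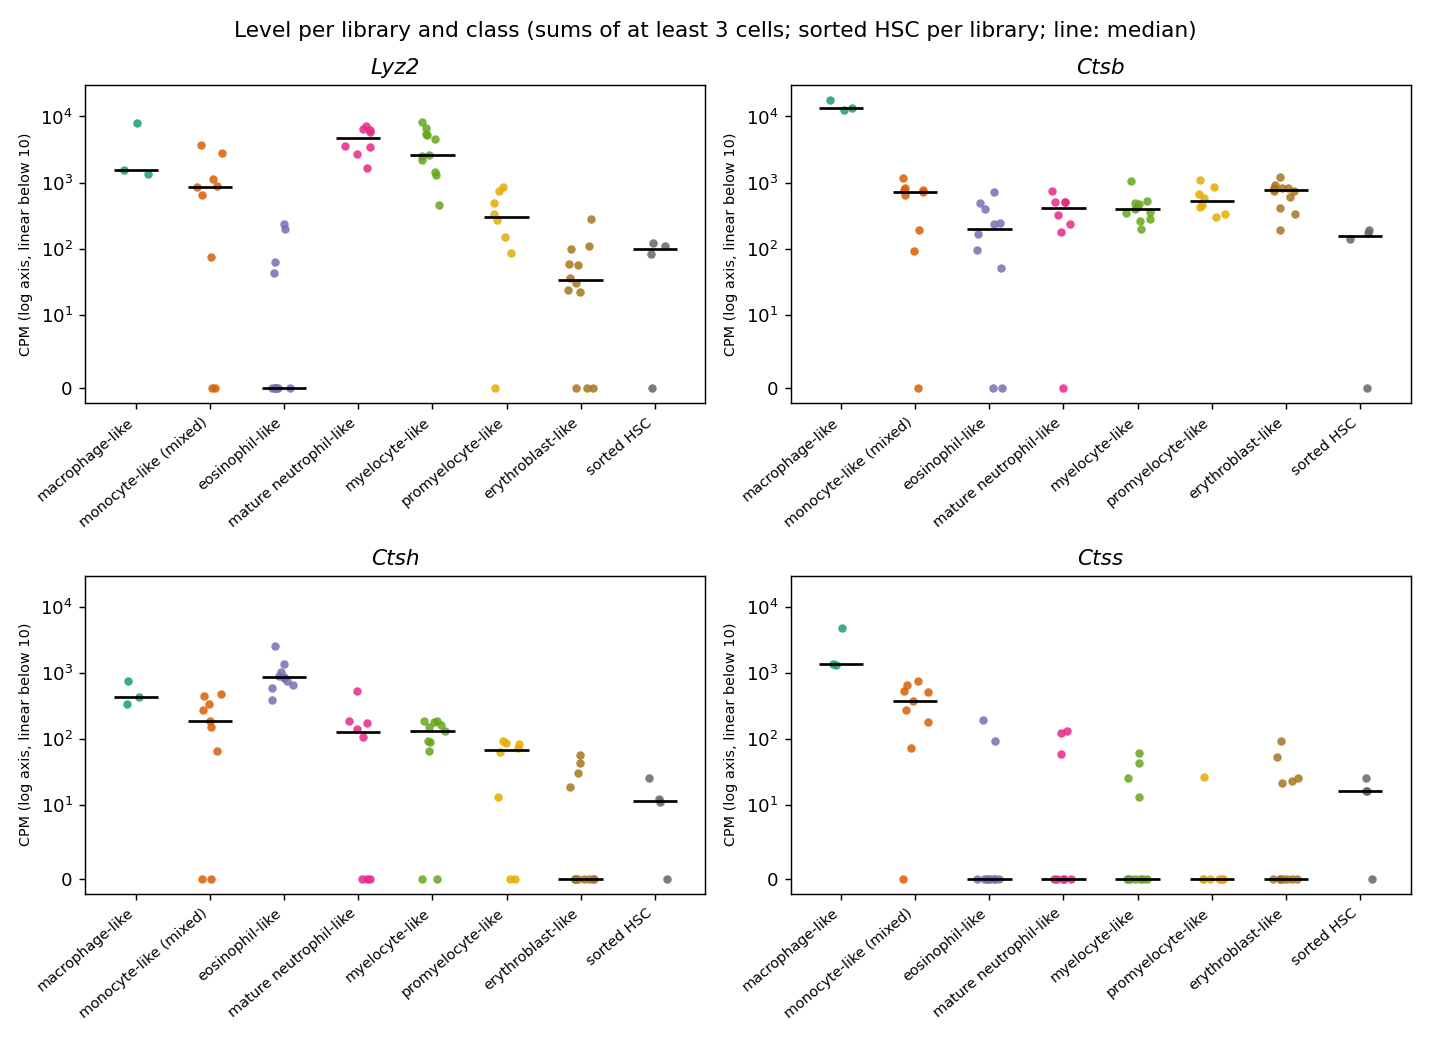
Lyz2, Ctsb, Ctsh and Ctss per library and class in CPM (log axis, linear below 10), a point for each sum of at least 3 cells and, for sorted HSC, for each library, with a line at the median. Lyz2 is high in macrophage-like, mature neutrophil-like and myelocyte-like cells, Ctsb is present in all classes with the 3 macrophage-like sums on top, Ctsh has its highest median in eosinophil-like cells, and Ctss has a median of 0 in the 3 neutrophil-line classes, in eosinophil-like and in erythroblast-like cells.

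In the neutrophil-line classes 4 or 5 members rose against erythroblast-like cells, beside a large share of all genes. Mature neutrophil-like cells had 5 higher and 1 lower (32.6% and 42.7% of all genes), and myelocyte-like cells 4 and 1 (35% and 38.5%). Promyelocyte-like cells had 5 and 3 (30.3% and 32.2%) and monocyte-like cells 8 and 1 (29.4% and 26.5%). Ctss and Ctsc passed the filter through few classes, as stated above, so these counts are a description. Grn, the progranulin gene, rose in all of these classes. Against erythroblast-like cells, where it had 30.4 CPM, it was higher by 3.34 ± 0.34 in myelocyte-like, 2.86 ± 0.36 in promyelocyte-like and 2.39 ± 0.52 in mature neutrophil-like cells (adjusted p = 9.4e-16, 1.4e-11 and 2.3e-05). Psap followed another order. It rose in mature neutrophil-like cells, with 742 CPM (log2 fold change 1.63 ± 0.33, adjusted p = 8.6e-06), but not past the threshold in myelocyte-like cells with 289 CPM (0.44 ± 0.28, adjusted p = 0.155). Mature neutrophil-like cells exceeded myelocyte-like cells in 2 members, Psap by 1.19 ± 0.34 and Ctsd by 1.48 ± 0.38 (adjusted p = 0.00342 and 9.6e-04), where 12.3% of all genes were higher. Against erythroblast-like cells the call of Ctsd in mature neutrophil-like cells (1.04 ± 0.35) was lost without micro-dissected replicates 1 to 5 (0.46, adjusted p = 0.269). Ctsz and Lamp1 were spread widely. Ctsz had 209 CPM in promyelocyte-like, 76.7 CPM in myelocyte-like and 83.4 CPM in mature neutrophil-like cells, and Lamp1 had 563, 339 and 313 CPM in the same order. Ctsc, the activator of granule serine proteases, had 14 CPM in promyelocyte-like cells, the class that makes these proteases, against 5.8 CPM in erythroblast-like cells, and did not pass the test (0.67 ± 0.73, adjusted p = 0.433). In mature neutrophil-like cells no Ctsc transcript was found, which allows up to 31.2 CPM. Ctss, 1 of the 3 lower members in promyelocyte-like cells, rested on 2 transcripts there.

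The mixed monocyte-like cluster was clustered once more, which gave groups too small for a test. The 9 cells led by Fn1, F13a1 and Ccr2 had 5905 CPM of Lyz2, 4924 CPM of Psap, 1531 CPM of Ctss and 570 CPM of Ctsc. The 8 cells with markers of plasmacytoid dendritic cells (Siglech, Bst2) had 44.2 CPM of Lyz2, but 3437 CPM of Psap, 1925 CPM of Ctsb and 933 CPM of Grn. Both held more Psap than any class other than macrophage-like cells. The 9 plasma-cell-like cells had 1289 CPM of Ctss, with 1147 and 1424 CPM in the 2 libraries that held at least 3 of them, and 44.1 CPM of Lyz2.

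Set against sorted HSC, the classes differed in which members rose. The classes come from micro-dissected libraries only, so class and way of collection cannot be told apart here. These fits had no library block. Sums of different classes from the same library entered as separate samples, and the p-values do not account for that. The filter again kept genes that are high in any class, macrophage-like cells among them, so the counts of members here are a description. In macrophage-like cells all 10 members rose, where 20.5% of 1232 genes did. In erythroblast-like cells 1 member rose and 2 fell, where 25.7% and 26.5% of genes did. Ctsb rose by 2.14 ± 0.44 (adjusted p = 2.6e-05), and Grn and Ctsc fell by 2.31 ± 0.44 and 1.96 ± 0.70 on the log2 scale (adjusted p = 5.7e-06 and 0.0139); the Ctsc call was lost without sorted HSC replicate 3 (adjusted p = 0.069). Lyz2 did not pass the test in erythroblast-like cells against sorted HSC (-0.92 ± 0.79, adjusted p = 0.327). In eosinophil-like cells Ctsh and Lamp1 rose (5.51 ± 0.64 and 1.63 ± 0.39), where 21.2% of genes did. In myelocyte-like cells Lyz2, Ctsh, Ctsb and Grn rose (5.20 ± 0.87, 2.74 ± 0.64, 1.30 ± 0.44 and 1.01 ± 0.41), where 29.6% did, and with library totals as scaling Ctsb and Grn lost their calls. In mature neutrophil-like cells 4 rose, Lyz2, Ctsh, Ctsd and Psap, and Ctsc fell, where 26.5% rose and 35.6% fell. Without sorted HSC replicate 5, 2 of them were called, Lyz2 and Ctsh, and without replicate 3 Ctsc lost its call (adjusted p = 0.055). In monocyte-like cells 8 rose, where 17.8% of genes did, and in promyelocyte-like cells 3 rose, Ctsb, Ctsz and Lamp1, where 22.2% did.

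Whether transcripts of these genes in erythroblast-like cells go with an attached myeloid cell was examined from the clump numbers in the column names. In 6 libraries, 59 erythroblast-like cells with a kept neutrophil-line or macrophage-like partner were set against 72 with erythroblast-like partners only. Lyz2 had 47.3 ± 62.3 CPM with a myeloid partner and 37.1 ± 33.5 CPM with erythroblast-like partners only (SD, n = 6 libraries each), and was higher with a myeloid partner in 3 of 6. Psap had 335 ± 79.6 CPM with a myeloid partner and 228 ± 79.9 CPM without, and was higher with a myeloid partner in 5 of 6, but it was not among the 332 genes that passed the filter. Ctsb was the only member tested (log2 fold change 0.03 ± 0.42, adjusted p = 0.998). No gene of the 332 was called by edgeR (0% in either direction), and 2 had an unadjusted p under 0.05. S100a8, an abundant neutrophil gene, stood at 1832 ± 1509 CPM with a myeloid partner and 1272 ± 587 CPM without in the same erythroblast-like cells. The direction differed between neutrophil genes. Camp had 683 ± 754 CPM with a myeloid partner and 567 ± 284 CPM without, and S100a9 had 1980 ± 1730 and 1961 ± 1576 CPM. Ngp had 1042 ± 814 and 1075 ± 824 CPM, and Lyz1 had 99.2 ± 99.9 and 152 ± 157 CPM. The part of these genes in the values above was not tested.

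Of the wider list of 74 lysosomal genes, 40 were tested in sorted HSC against micro-dissected cells, of which 11 fell and 1 rose, where 19.2% of all genes fell and 11.2% rose, with a median log2 fold change of -0.48, beside -0.16 over all genes. The legumain gene Lgmn had no transcript in sorted HSC, which allows up to 5.6 CPM over the group, against 46.4 CPM in micro-dissected cells. Cst7, an inhibitor of cathepsins, had 1 transcript in sorted HSC and 244 in micro-dissected cells. Such genes passed the filter through micro-dissected libraries, so the counts of list genes in this comparison are a description. Acp5, the tartrate-resistant acid phosphatase, fell by 3.37 ± 0.64 on the log2 scale (adjusted p = 8.9e-05). Gaa, which degrades glycogen, rose by 2.80 ± 0.51 (adjusted p = 5.2e-05), with 136 CPM in sorted HSC, against 17.4 CPM in micro-dissected cells. In macrophage-like against erythroblast-like cells 20 of the 74 genes of the list passed the filter and 19 rose, where 24.3% of all genes did. Some, such as Cd68, passed through the macrophage-like sums themselves, so this count is a description and says nothing of the list genes that were not tested. Lipa, the lysosomal acid lipase, rose by 6.11 ± 0.66 (adjusted p = 5.6e-14). Cd68, a membrane protein of macrophage lysosomes, also rose, with 32 transcripts in macrophage-like sums, against 2 in erythroblast-like sums. Arsb was the tested list gene that did not pass (0.18, adjusted p = 0.907). The smallest increases were in Atp6v1g1, Atp6v1f and Laptm4a (1.82 ± 0.50, 1.99 ± 0.54 and 2.58 ± 0.39). In eosinophil-like against erythroblast-like cells 12 of the same 20 rose, where 29.8% of all genes did. They were led by Cd63, Arsb and Man2b1 (5.94 ± 0.28, 5.13 ± 0.40 and 4.49 ± 0.35). In turn 2 fell, where 35% did, Atp6v1g1 and Laptm4a (-1.30 ± 0.50 and -1.15 ± 0.37). Genes high in eosinophil-like sums, such as Cd63 and Arsb, could pass the filter through these sums, so these counts are a description too.

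The genes with the most similar patterns were sought over 46 sums of at least 5 cells from 16 libraries and 8 classes, by Pearson's r of log2(CPM + 100) among 1614 genes. These sums share libraries and classes, so r is a description. No macrophage-like sum had 5 cells, so the class with the most Ctss, Psap and Ctsb is not among them. Lyz2 was most like Lyz1 (0.937), Cd177 (0.916) and S100a9 (0.891). Ctsh was most like the eosinophil genes Ear1 (0.732), Gapt (0.716) and Alox15 (0.702). Ctss and Psap had Mpeg1 as the most similar (0.802 and 0.751), followed for Ctss by Irf8 (0.749) and for Psap by Selplg (0.744), and both by Tmsb10. Ctsc was most like Crip1, S100a10 and Mpeg1 (0.617, 0.583 and 0.571). Ctsd was most like Ccl6, Stk17b and Sqstm1 (0.688, 0.64 and 0.632), Ctsz like Csk, Psmb8 and Cst3 (0.691, 0.596 and 0.593) and Lamp1 like Npc2, Arf1 and Ap3s1 (0.628, 0.608 and 0.573). Grn was most like Atxn10, Gpi1 and Mapk3 (0.765, 0.76 and 0.739). Ctsb was most like Sec61g, Gpx1 and Ccne1 (0.70, 0.622 and 0.61). Among the members, its r ran from -0.415 with Ctsh and -0.323 with Lyz2 to 0.306 with Ctss.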

How the data were processed

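Single cells were profiled by CEL-seq, sequenced on an Illumina NextSeq500 (micro-dissected) or on a HiSeq2500 or NextSeq500 (sorted HSC), per the labels' protocols, so sequencer and group overlap only in part. The authors deposited estimated counts of transcripts per gene and cell for the whole series, per the series text. The values step just above whole numbers, the form a correction for tags drawn more than once gives; no source used here states that step. Deposited per-library tables hold values of the same form, read as estimated counts, though their headers name no unit. Their kept cells and totals differ from those of the series table (11 cells and 27634 transcripts for micro-dissected replicate 1, against 6 and 14291), so levels from the 2 sources are not set side by side. They were used for an alternative and for micro-dissected replicate 18. BWA 0.6.2-r126 and mm10 are named in the submitters' processing notes. The series text calls each sorted HSC sample 1 cell, while the column names put up to 91 kept cells under 1 label, so a label is taken as a library. Sorted HSC replicate 2 and micro-dissected replicate 18 have no column in the series table. Replicate 18 entered only the alternative with per-library tables. No column was without a sample.

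Cells with at least 1000 transcripts were kept and summed per library, or per library and class, and rounded. Genes were tested with edgeR 4.0.16 (quasi-likelihood, TMM, filterByExpr, robust, R 4.3.3), with library as a block between classes of micro-dissected cells. Benjamini-Hochberg adjustment ran over all genes tested in a comparison, with 0.05 as threshold. The SE is an approximation from the fold change and the square root of F. Classes are Leiden clusters (scanpy 1.11.5, resolution 1) of log-normalised micro-dissected cells, found without the members, Lyz1 and the lysosomal list, and named where at least 3 markers were raised. A sum of a class needs at least 3 cells and a class at least 3 sums. Sums of sorted HSC libraries had no such minimum, so replicate 1 entered with 2 cells. No doublet caller was run, since cells were placed in wells singly, and an alternative leaves out the deepest 5% of cells. Since no animals are named, a p-value reflects how these libraries vary, and that variation may be technical. Intervals (exact Clopper-Pearson, 95%) and limits from a count of 0 (3 transcripts over the group or class) cover counting error only. The genes named are the 10 members, Lyz1, the 3 most similar genes of each member (mean of at least 100 CPM over the sums) and, of the lysosomal list, up to 3 with the highest and 3 with the lowest log2 fold change past the threshold in a comparison. A gene that this rule selects is not reported here. Arsb in macrophage-like cells and, by clump partner, S100a8, S100a9, Camp and Ngp were chosen after their values were seen. The members and lists were chosen with earlier results of these data known. The fits were tested on data simulated with the same dispersion for all genes. A log2 change of 1.5 was called in 34% of changed genes in sorted HSC against micro-dissected cells. In macrophage-like against erythroblast-like cells it was called in 18.1%. A change of 3 was called in 96% and 77.2%, and unchanged genes in 0.241% and 0.232%. A missing call therefore does not show that a gene is unchanged. Alternatives changed the scaling, the filter, the test (DESeq2 1.42.0), the minimum per cell or per sum, the resolution, the library block and the libraries used.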

Additional observations from a re-analysis of the deposited data

Results flagged for a closer look

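Of 50 sets of 4 to 10 library values of a gene in a class or group, 5 had 1 library far from the others, by the gap to its nearest neighbour over the range. Chance gives about 1 in 20. Ctsh was 2624 CPM in eosinophil-like cells of micro-dissected replicate 12 (4 cells), with 1404 CPM as the next value. Ctsh was 543 CPM in mature neutrophil-like cells of replicate 4 (4 cells), with 190 CPM next. Ctss was 199 CPM in eosinophil-like cells of replicate 8 (3 cells), with 92.9 CPM next, and 26.9 CPM in promyelocyte-like cells of replicate 15 (8 cells), where the other libraries were at 0. Lamp1 was 0 in mature neutrophil-like cells of replicate 14 (3 cells), with 252 CPM next.

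Micro-dissected replicate 18, which is outside the comparisons except the alternative with per-library tables, had 83 kept cells in its own deposited table, where a count of 0 allows up to 10.3 CPM. That table's totals differ from the series table for other libraries, so its levels are not compared with those above. All 10 members were above that limit. Lyz2 stood at 1002 CPM, Ctsb at 1056 CPM, Ctsd at 583 CPM, Ctss at 178 CPM, Ctsz at 152 CPM, Ctsh at 65.6 CPM and Ctsc at 41.5 CPM. Psap stood at 767 CPM, Grn at 300.4 CPM and Lamp1 at 448 CPM.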

How the results depend on the processing

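Over the alternatives, 228 values kept within the limit set for their kind and 24 did not. These values were counts of called members, levels at resolution 2 and thinned shares. The limits were 1.5 times the value for counts, the SD for levels and the binomial interval for shares. Of 1038 values of single genes, 977 kept their direction and side of the threshold, 47 lost a call, 13 gained one and 1 changed sign, Ctsb in monocyte-like against erythroblast-like cells (0.01 at 5 or more cells per sum). In sorted HSC against micro-dissected cells 4 to 7 members were lower when a sorted library was left out, where 475 to 761 of 3818 to 4860 genes were. All genes gave 408 higher and 698 lower calls, but 754 and 558 with library totals, 268 and 475 without sorted HSC replicate 3, 240 and 387 after thinning, 205 and 379 at 2000 transcripts per cell, 902 and 788 with DESeq2, and 1633 and 1205 with no filter. Library totals moved the median of all genes to 0.17.

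Against erythroblast-like cells, monocyte-like cells had 1 lower member, where 318 of 1200 genes were lower. They had 0 with library totals (214 of 1200 genes), without the library block (290 of 1200) or at 5 cells per sum (298 of 1609). At 1 cell per sum they had 2 lower (135 of 451) and 5 higher (138 of 451). Myelocyte-like cells had 1 lower (462 of 1200 genes), but 0 at 2000 transcripts (340 of 924). They had 2 lower with library totals (548 of 1200), at resolution 2 (455 of 1062) or without cells with skeletal muscle genes (504 of 1139). Promyelocyte-like cells had 3 lower (387 of 1200 genes), but 1 with library totals (289 of 1200) or at 5 cells per sum (420 of 1609). At 2000 transcripts they had 0 lower (275 of 924) and 3 higher (299 of 924). The Hbb-b1 over the Hemgn cluster had 0 higher with library totals, where 36 of 266 genes were. Against sorted HSC, leaving out a sorted library gave 1 to 2 lower in erythroblast-like cells, where 248 to 378 of 1224 to 1242 genes were lower. In mature neutrophil-like cells it gave 2 to 4 higher and 0 to 1 lower, where 297 to 336 genes were higher and 397 to 430 lower. Promyelocyte-like cells had 6 higher at resolution 2, where 287 of 1187 genes were. Myelocyte-like cells had 2 higher and 1 lower with library totals, where 293 and 443 of 1232 genes were. The cause of these moves was not tested. Thinned shares moved to 38.9% for Ctsc and 44.4% for Ctsz in macrophage-like cells and 56.5% for Ctsh in eosinophil-like cells. Monocyte-like cells at resolution 2, macrophage-like cells at 5 cells per sum, and both with eosinophil-like and mature neutrophil-like cells at 2000 transcripts gave no value. The fits without micro-dissected replicates 1 to 5 against sorted HSC, with Lyz1 and Lyz2 added up, at 1 cell per sum, without each macrophage-like sum and between erythroblast-like clusters were chosen after seeing the data. No paired analysis was possible because replicate numbers follow accession order and pair no samples; this concerns comparisons with sorted HSC, while micro-dissected classes, clusters and clump partners had library as a block. Low cell numbers limit macrophage-like cells and sorted HSC replicate 1 most.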
